A study of Mus musculus with 6 samples.

Results

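Voltage-gated sodium channel subunit genes were examined in hearts of mice aged 12 months, 3 with a knockout of Cenpf (KO) and 3 wild-type (WT), each on an Affymetrix mouse gene array of its own. Cenpf codes for a large kinetochore protein that also binds microtubules. The mice of both groups received no treatment. Strain, sex, the heart chambers taken, the deleted part of Cenpf and the cells in which it was deleted were not given in the sources used here. Hearts of knockout and wild-type mice were compared for how the transcripts of the organ differ.

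The genes were 8 chosen by name: Scn2b, Scn3b, Scn4b, Scn4a, Scn7a, Scn10a, Scn1a and Scn8a. A gene was measured by the probe set (called probe here) whose annotation gives its symbol alone, taking the one of highest mean where there were several. In this way 7 of the 8 had a probe, each exactly 1, out of 19938 genes named by 21789 probes. Scn4a, the sodium channel of skeletal muscle, had no such probe and is not analysed here. Values are log2 expression values, so a difference of 1 is a doubling, and differences are KO minus WT. Since probes differ in how strongly they bind, a value of one gene is not set against that of another. Each is set against a background level of 6.35, the value below which 95% of 1210 olfactory and vomeronasal receptor probes lay, genes taken as silent in heart. Of all named probes, 71.2% had a mean above this level, a share to hold beside the counts above background given below.

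Voltage-gated sodium channels carry the inward sodium current that starts the action potential of heart muscle, nerve and skeletal muscle. Each channel has a large alpha subunit, which forms the pore and senses voltage, and smaller beta subunits, which cross the membrane once, carry an immunoglobulin-like domain and alter the gating and placement of the channel. In heart, sodium current sets how fast excitation spreads through atria, ventricles and the conduction system. Of the genes here, Scn2b, Scn3b and Scn4b encode beta subunits. Scn1a, Scn8a and Scn10a encode alpha subunits best known from neurons, and Scn7a encodes a related protein that is known from glia as a sensor of sodium concentration.

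The targeted gene was read first. Cenpf had log2 values of 6.35, 6.10 and 6.68 in KO hearts, against 8.75, 8.54 and 8.04 in WT hearts, a fitted difference of -2.07 (limma, adjusted p = 0.0286). Every KO heart lay below every WT heart, and the KO hearts lay around the background level. With 1 array left out the Cenpf difference stayed between -2.27 and -1.92, but it passed the adjusted threshold only without WT replicate 3, with adjusted p from 0.0689 to 0.198 without any other array. Whether this probe lies in the deleted part of the gene is not known here, which limits it as a check of the labels. Heart muscle was present on every array, with all 10 ventricular myocyte markers above the background level. WT replicate 3 lay farthest from its own group, though not by far, and nearest of the WT hearts to the KO hearts. Its root mean square distance from the mean KO profile over the 21789 probes was 0.220 on the log2 scale, against 0.295 and 0.307 for WT replicates 1 and 2. Its distance from the mean of those WT hearts was 0.286. From the rest of their groups, WT replicates 1 and 2 each lay at 0.236 and KO replicate 1 at 0.261. Main results that rest on it are therefore given with and without it. Because it was singled out by its nearness to the KO hearts, leaving it out favours larger KO minus WT differences. With all hearts 6 named probes passed the adjusted threshold, and without it 293 did, so passing without it is not separate support. The 3 hearts of a group are labelled biological replicates, and 3 arrays a group limit the precision.

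Of the 7 measured genes, 0 passed an adjusted p under 0.05 in limma's test, where 0.0275% of all named probes did. At an unadjusted p under 0.05 there were 2, Scn4b on the higher side and Scn3b on the lower, beside 9.9% of all probes. Scn4b was also the only one of the 7 to pass the adjusted threshold without WT replicate 3, where 1.34% of all named probes did. The fitted difference was above 0 for 2 of the genes and below 0 for 5, with a median of -0.14 over the 7 and -0.0082 over all named probes. On all 6 arrays Scn4b, Scn3b and Scn7a lay above the background level, while Scn2b, Scn1a and Scn8a lay below it and Scn10a lay around it.

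**Figure D1:**
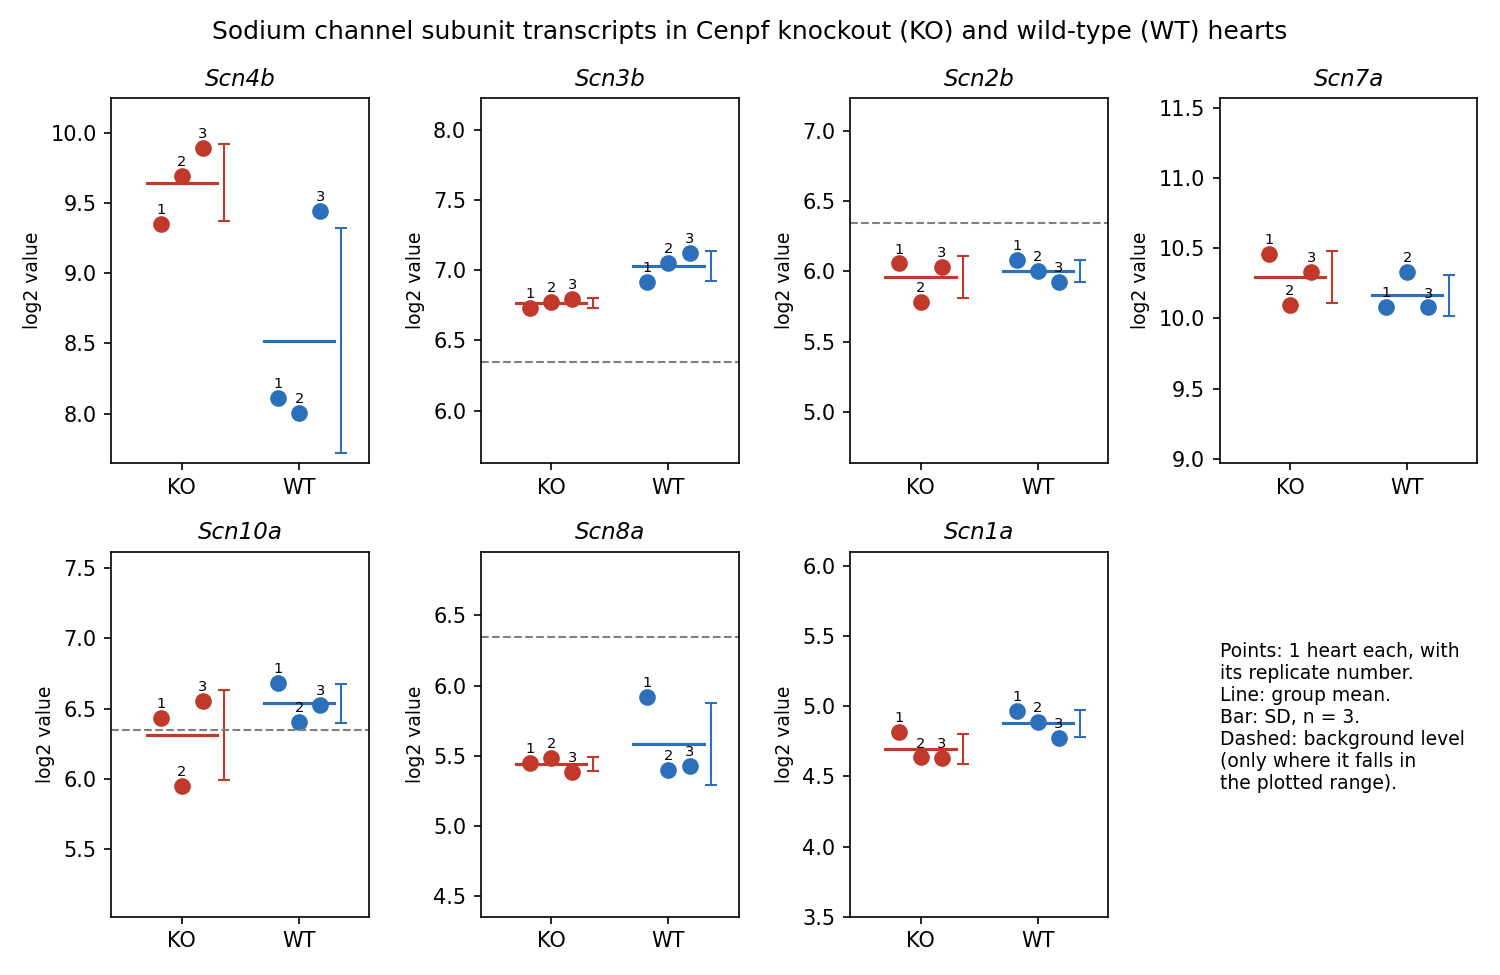
Log2 values of the 7 measured sodium channel subunit genes in each heart, KO on the left and WT on the right of each panel, with the group mean as a line and the SD (n = 3) as a bar. All panels span the same number of log2 units. In Scn4b, WT replicate 3 lies among the KO hearts at 9.44 while WT replicates 1 and 2 lie at 8.11 and 8.004, and in Scn3b every KO heart lies below every WT heart.

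Scn4b, which encodes a beta subunit that binds its alpha subunit through a disulphide bond and is known for its part in resurgent sodium current in neurons, varied most. It read 9.35, 9.69 and 9.89 in the 3 KO hearts, against 8.11, 8.004 and 9.44 in the 3 WT hearts (probe 10584862). Of the WT hearts, replicates 1 and 2 were low, while replicate 3 lay above the lowest KO heart, so the groups overlapped. The hearts fell on either side of a gap of 1.24 log2 units, with the 3 KO hearts and WT replicate 3 above it and WT replicates 1 and 2 below. The group means were 9.64 ± 0.27 in KO and 8.52 ± 0.80 in WT (SD, n = 3 each). The fitted difference was 1.12 with a standard error of 0.35, or 2.18-fold, and did not pass the threshold (limma, adjusted p = 0.424). The 95% confidence interval ran from 0.32 to 1.93. Of the 21789 probes, 59 had a fitted difference at least as large in either direction.

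Without WT replicate 3 the Scn4b difference was 1.59 with a standard error of 0.17, and it passed (limma, adjusted p = 0.0119). In that comparison 1.34% of all named probes passed, 0.776% on the higher side, beside 0.0275% with all hearts. The heart left out was the WT heart nearest to the KO hearts. Leaving out any other array gave differences of 0.87 to 1.27 for Scn4b, none of which passed, with adjusted p from 0.402 to 0.812. The WT values alone spanned 1.44 log2 units and the KO values 0.54. In a bulk heart sample, more cells that contain a transcript and more of it per cell cannot be told apart.

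**Figure D2:**
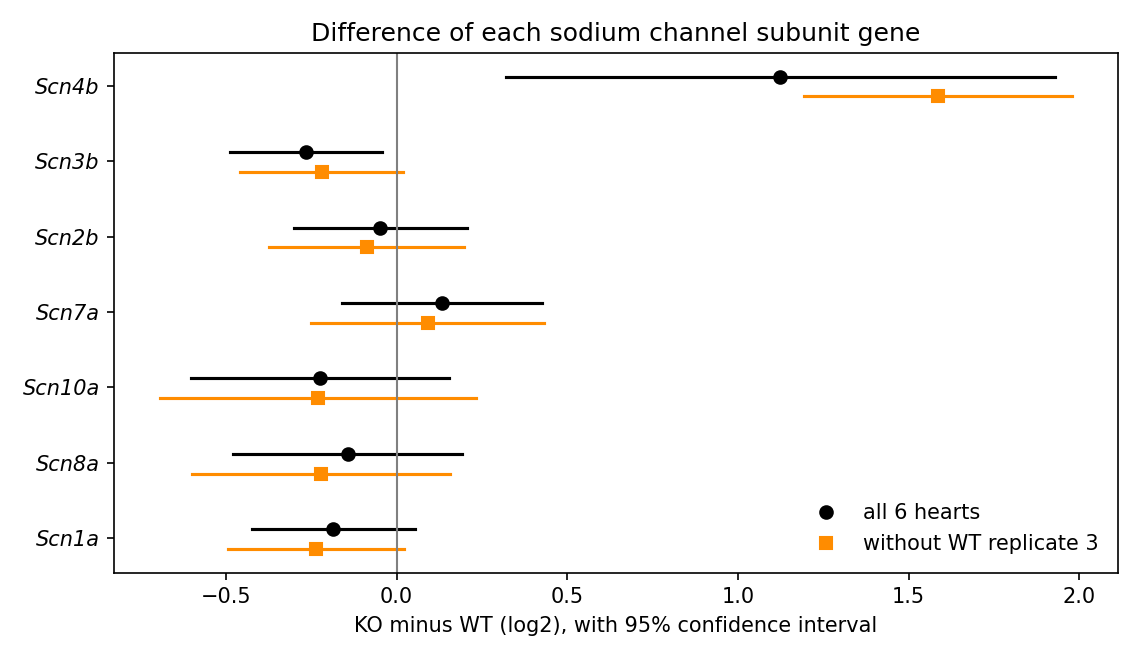
Fitted KO minus WT differences (log2) of the 7 genes with 95% confidence intervals, for all 6 hearts (black circles) and without WT replicate 3 (orange squares). Only Scn4b lies more than 1 unit from 0, at 1.12 with all hearts and 1.59 without that replicate.

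Scn2b, which encodes the beta subunit most like that of Scn4b in its disulphide link to the alpha subunit, is the neighbouring coding gene to Scn4b on chromosome 9. It read 6.06, 5.79 and 6.03 in KO hearts, against 6.08, 6.01 and 5.93 in WT hearts, below the background level on all 6 arrays. The groups overlapped throughout, with WT replicate 1 highest and KO replicate 2 lowest. Its KO minus WT difference was -0.047 (limma, adjusted p = 0.910), with a confidence interval from -0.30 to 0.21. Since the probe lay below background, it did not resolve a level of this transcript in either group.

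The starts of these neighbouring genes are shown since one was read well above background and varied by 1.89 log2 units among hearts, and the other was not resolved. Each sequence runs from 250 bases before to 50 after the start of the gene (RefSeq, GRCm38.p6, both on the plus strand, at chr9:45138374-45138673 for Scn4b and chr9:45117626-45117925 for Scn2b). Capitals mark matches, on either strand, to 6 short motifs. These were the box with the letters TATAAA, the box with the letters CCAAT, the GC box with the letters GGGCGG, the E-box with the letters CANNTG, the T-box core with the letters AGGTGT and the site of GATA factors with the letters GATAA.
Scn4b: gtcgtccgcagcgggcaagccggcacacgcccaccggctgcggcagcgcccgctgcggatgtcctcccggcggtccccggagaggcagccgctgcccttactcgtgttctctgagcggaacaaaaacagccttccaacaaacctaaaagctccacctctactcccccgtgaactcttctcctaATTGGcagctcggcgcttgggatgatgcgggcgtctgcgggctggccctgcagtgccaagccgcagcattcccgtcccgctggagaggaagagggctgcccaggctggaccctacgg
Scn2b: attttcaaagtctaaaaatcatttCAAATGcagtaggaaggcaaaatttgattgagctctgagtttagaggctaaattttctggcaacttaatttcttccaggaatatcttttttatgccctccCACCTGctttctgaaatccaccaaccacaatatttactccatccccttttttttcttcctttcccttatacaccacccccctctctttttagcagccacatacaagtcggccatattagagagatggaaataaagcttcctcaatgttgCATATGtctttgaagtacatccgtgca

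The windows differed in base composition. That of Scn4b was 66.3% G or C with 26 CG dinucleotides, and that of Scn2b was 38.3% with 2, where the median of 32851 promoters of this length was 52.7% with 7. In Scn4b a CCAAT box on the minus strand, starting at position -67 from the start of the gene, was the single match, a motif held by 37.4% of all promoters. In Scn2b there were 3 matches, all to the E-box, which 72.3% of all promoters hold. The other motifs were held by 13.6% (TATA box), 35.7% (GC box), 13.7% (T-box core) and 25.4% (GATA site) of the 32851 and had no match in either window. A match is a string of letters and was not tested as a binding site.

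Scn3b, which encodes a beta subunit that binds its alpha subunit without a disulphide bond, was lower in each KO heart by a small amount that did not pass the adjusted threshold. It read 6.73, 6.77 and 6.80 in KO hearts, against 6.92, 7.05 and 7.12 in WT hearts. Every KO value lay below every WT value, and all lay above the background level, the KO hearts by 0.42 on average and the WT hearts by 0.68. Scn3b was the only one of the 7 genes whose groups did not overlap, where 14.8% of all named probes had groups that did not overlap, and 7.47% of all named probes did so with KO lower. The fitted difference was -0.26 (SE 0.097, limma, adjusted p = 0.464), and its 95% confidence interval ran from -0.49 to -0.042. It lay between -0.32 and -0.22 in the 15 alternatives and passed the adjusted threshold in 0 of them. WT replicate 3, which was high in Scn4b like the KO hearts, had the highest Scn3b value of all.

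Of the 4 measured members that are alpha subunits or their relatives, only Scn7a was above background on all 6 arrays. Its values were 10.46, 10.10 and 10.33 in KO hearts, against 10.08, 10.33 and 10.08 in WT hearts. KO replicates 1 and 3 and WT replicate 2 formed the upper values and the other 3 hearts the lower ones, so genotype did not order them. The group means were 10.30 ± 0.18 in KO and 10.16 ± 0.15 in WT (SD, n = 3 each), and the fitted difference of 0.13 did not pass (limma, adjusted p = 0.749, 95% confidence interval -0.16 to 0.43). Leaving out 1 array moved it from 0.052, without KO replicate 1, to 0.23, without KO replicate 2, and it passed in 0 of these. Schwann cell and glial markers, a list that suits the cells in which Scn7a is best known, lay above background in 9 of 10 measured members. Their mean deviation from the average over all hearts ran from -0.024 to 0.082 in KO hearts and from -0.077 to 0.055 in WT hearts, highest in KO replicate 1 and next in WT replicate 2. In KO replicate 3, where Scn7a was high, this list was at -0.024. Its members did not share 1 order of hearts: Cdh19 and Pmp22 were highest in KO replicate 1 and WT replicate 2, but Gfra3 and S100b in KO replicate 3. Fibroblast markers were highest in the same hearts too, at 0.35, -0.34 and -0.24 in KO hearts and 0.14, 0.30 and -0.22 in WT hearts, and low in KO replicate 3. The part of these cells in the Scn7a values was not tested.

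Scn10a, the alpha subunit gene of pain-sensing neurons, whose human counterpart has been linked to cardiac conduction, lay at the background level. It read 6.44, 5.95 and 6.55 in KO hearts, against 6.68, 6.40 and 6.53 in WT hearts, and 5 of the 6 values lay above 6.35. KO replicate 2 stood 0.45 below the next heart, and the other 5 overlapped. KO minus WT, it differed by -0.22 (limma, adjusted p = 0.669, 95% confidence interval -0.60 to 0.15), and without KO replicate 2 it was -0.043.

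Scn8a and Scn1a, the alpha subunit genes widely used by central neurons, were below background on all 6 arrays. Scn8a read 5.45, 5.48 and 5.39 in KO hearts, against 5.92, 5.40 and 5.43 in WT hearts, where WT replicate 1 alone was higher and the others coincided. Its fitted difference was -0.14 (limma, adjusted p = 0.765) and changed sign to 0.024 without WT replicate 1. Scn1a read 4.82, 4.64 and 4.63 in KO hearts, against 4.97, 4.89 and 4.78 in WT hearts, with overlapping groups and a fitted difference of -0.18 (limma, adjusted p = 0.579). Neither probe resolved a transcript level in these hearts.

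Other subunit genes with a probe of their own were Scn2a, Scn3a, Scn9a and Scn11a, all better known from neurons. Of these 4, 0 passed the adjusted threshold in limma and 0 had an unadjusted p under 0.05 at their probe of highest mean, whose differences ran from -0.18 to 0.062. Of these 4 probes only that of Scn2a lay above background, at 7.15, 7.22 and 7.27 in KO hearts, against 7.40, 7.36 and 7.43 in WT hearts. Those groups did not overlap, and the difference of -0.18 did not pass (limma, adjusted p = 0.540). The 14 Scn2a probes disagreed, with 7 higher and 7 lower, and 2 of the 14 had a mean above background, so this value stands for 1 probe and not for the gene.

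The genes whose course over the 6 hearts lay nearest to that of Scn4b were D7Ertd443e, Tmem171 and Gnb3, out of 14388 genes above background. Likeness was the root mean square difference of log2 values after each gene's mean was subtracted, 0.141, 0.225 and 0.226 for these genes. Gnb3, which encodes a beta subunit of heterotrimeric G proteins, read 9.40, 9.58 and 9.35 in KO hearts, against 8.01, 8.20 and 9.28 in WT hearts. Tmem171, a transmembrane protein gene, read 9.06, 8.96 and 9.30 in KO hearts, against 7.16, 7.34 and 8.51 in WT hearts. The KO minus WT differences were 1.12 for D7Ertd443e, 1.44 for Tmem171 and 0.95 for Gnb3, none of which passed (limma, adjusted p of 0.379, 0.357 and 0.421). In all 3 genes WT replicate 3 lay below every KO heart but nearer to them than to WT replicates 1 and 2, least near in Tmem171. The 3 genes were picked for their likeness to Scn4b, so their pattern supports nothing about it. Nearest to Scn10a, the next widest in range, were Kctd14, Kctd5 and Snord104, at 0.065, 0.078 and 0.084, with Scn10a itself at the background level.

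**Figure D3:**
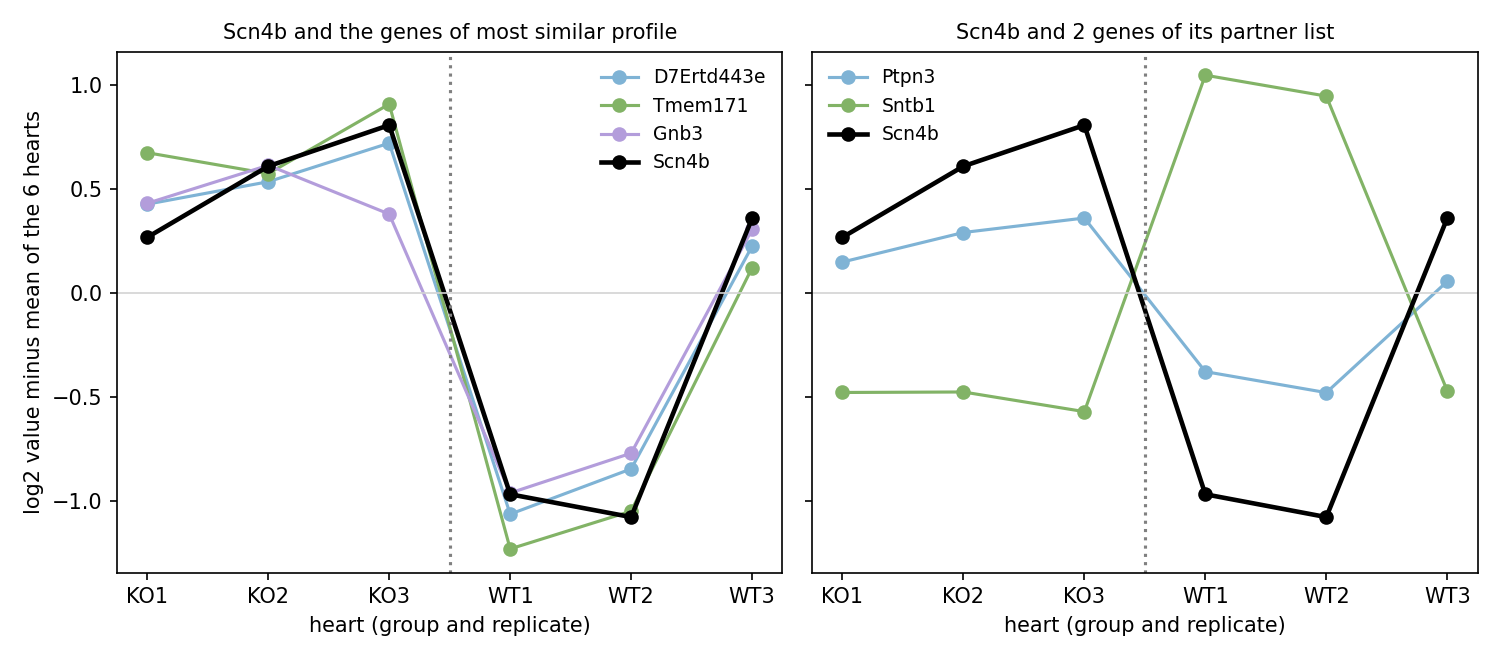
Log2 values minus each gene's mean over the 6 hearts, KO hearts left of WT hearts, for Scn4b with D7Ertd443e, Tmem171 and Gnb3 (left) and with Ptpn3 and Sntb1 (right). WT replicate 3 lies on the same side of 0 as the KO hearts in each line, while WT replicates 1 and 2 lie on the other side.

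Partners and regulators of sodium channels include the intracellular fibroblast growth factors, ankyrins, syntrophins, calmodulins and enzymes that modify the channel. Of 21 measured genes, 20 above background, 0 passed the adjusted threshold in limma, and 2 had an unadjusted p under 0.05, Ptpn3 on the higher side and Sntb1 on the lower, a share close to the 9.9% of all named probes. The fitted difference was above 0 in 10 and below 0 in 11, with a median of -0.018, beside -0.0082 over all named probes. Leaving out 1 array moved this median from -0.086, without WT replicate 3, to 0.039, without WT replicate 1. Groups did not overlap in 1 higher gene, Ptpn3, and 2 lower ones, Sntb1 and Dlg1, out of the 21, a share close to the 14.8% of all named probes. Among the intracellular fibroblast growth factors, Fgf11, Fgf13 and Fgf14, which were above background, differed by -0.018, 0.000 and -0.31, and Fgf12, below it, by -0.088. The ankyrin genes Ank2 and Ank3 differed by 0.015 and 0.11, and the calmodulin genes Calm2 and Calm3 by -0.18 and -0.12.

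Sntb1, the gene of a syntrophin that links membrane proteins to the dystrophin complex, mirrored Scn4b. It read 7.88, 7.88 and 7.79 in KO hearts, against 9.41, 9.31 and 7.89 in WT hearts. WT replicates 1 and 2 were high and WT replicate 3 was at the KO level, above the highest KO heart by less than 0.01. The fitted difference of -1.02 did not pass (limma, adjusted p = 0.457), while without WT replicate 3 it was -1.51 and passed (limma, adjusted p = 0.00280).

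Ptpn3, the gene of a tyrosine phosphatase reported to bind the cardiac sodium channel, was read by 12 probes. All 12 were higher in KO on average, but only 5 had groups that did not overlap. The highest Ptpn3 probe gave 9.87, 10.02 and 10.09 in KO hearts, against 9.35, 9.25 and 9.78 in WT hearts. WT replicates 1 and 2 were lowest and WT replicate 3 lay just under the KO hearts. The fitted difference was 0.53 (limma, adjusted p = 0.391), and 0.12 to 0.71 over the 12 probes, which share the hearts and are not replicates. Without WT replicate 3 it was 0.70 and passed (limma, adjusted p = 0.0412). Cav3, the muscle caveolin gene, had the third smallest p and differed by -0.44 (limma, adjusted p = 0.568), reading 8.25, 8.60 and 8.72 in KO hearts, against 9.32, 9.18 and 8.40 in WT hearts. Here too WT replicate 3 lay among the KO hearts, and without it the difference was -0.73 and did not pass (limma, adjusted p = 0.0930).

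**Figure D4:**
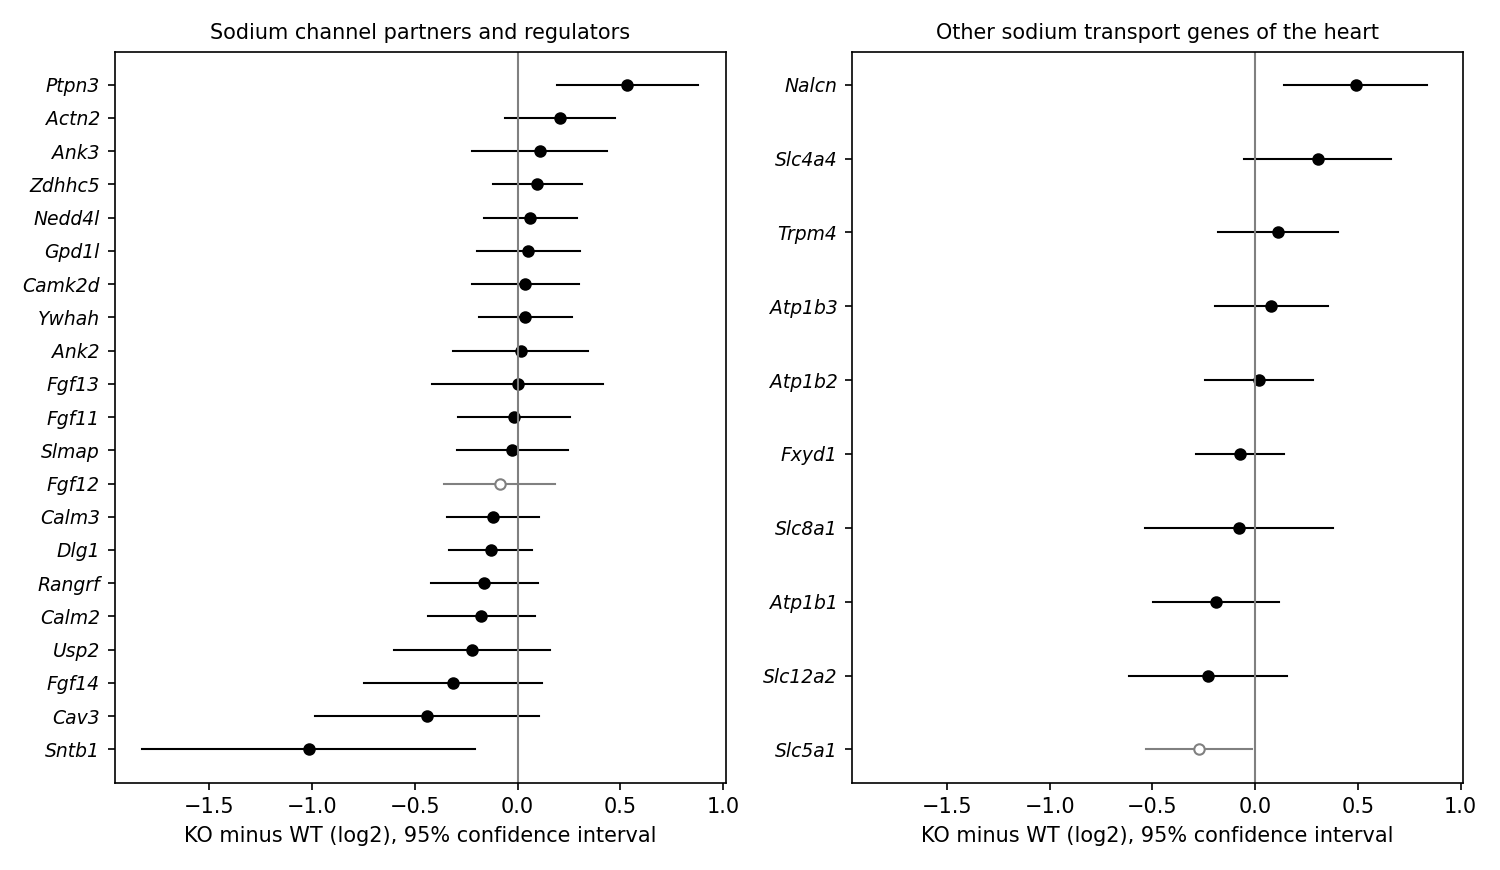
Fitted KO minus WT differences (log2, all 6 hearts) with 95% confidence intervals for 21 sodium channel partners and regulators (left) and 10 other sodium transport genes (right), with open grey circles for genes below background in both groups. Ptpn3 at 0.53 and Sntb1 at -1.02 lie farthest out on the left, and Nalcn at 0.49 on the right.

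Other sodium transport genes, which encode exchangers, pump subunits and leak channels, gave 0 of 10 past the adjusted threshold in limma, and 2 at an unadjusted p under 0.05, Nalcn on the higher side and Slc5a1, below background, on the lower, where 9.9% of all named probes had such a p. The median difference was -0.027, and ran from -0.082 without KO replicate 3 to 0.033 without KO replicate 1. Nalcn, the sodium leak channel gene, read 7.31, 6.84 and 6.78 in KO hearts, against 6.37, 6.48 and 6.61 in WT hearts. Every KO heart lay above every WT heart, and the difference of 0.49 did not pass (limma, adjusted p = 0.424). Slc4a4, a sodium bicarbonate cotransporter gene, differed by 0.30 and Atp1b1, a sodium pump subunit gene, by -0.19. The sodium calcium exchanger gene Slc8a1 differed by -0.077.

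Transcription factors of the heart and its conduction system, several of which are known to control sodium channel genes, gave 0 of 15 past the adjusted threshold in limma and 0 at an unadjusted p under 0.05, with a median difference of 0.0093. The smallest p values were those of Id2, Gata4 and Etv1, with differences of -0.35, 0.16 and 0.16. Of the 11 measured markers of the conduction system, 7 were above background. Their mean deviation ran from -0.12 to 0.074 in KO hearts and from -0.018 to 0.081 in WT hearts. Their pacemaker channel gene Hcn4 read 7.70, 7.98 and 8.01 in KO hearts, against 8.26, 8.17 and 7.74 in WT hearts. Of the 11 markers, 5 were higher in KO and 6 lower, and 0 passed the adjusted threshold in limma. Cntn2 alone had an unadjusted p under 0.05, where 9.9% of all named probes did. Its groups overlapped, and its difference was -0.28 (limma, adjusted p = 0.500).

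The means of the atrial and adipocyte marker lists divided the hearts as Scn4b did, but not all of their members did. Atrial myocyte markers, 7 of 10 above background, had mean deviations of 0.18, 0.052 and 0.011 in KO hearts and -0.098, -0.21 and 0.060 in WT hearts. Adipocyte markers, 5 of 7 above background, had -0.089, -0.18 and -0.17 in KO hearts and 0.40, 0.15 and -0.11 in WT hearts. In both list means WT replicates 1 and 2 lay on one side of the other 4 hearts. This held also with Nppa or Retn, their members of largest difference, left out. Without Nppa the margin was narrow, -0.0371 in WT replicate 1 against -0.0225 in KO replicate 3. Nppa, Myl7, Myl4, Stard10 and Kcnj3 were lowest in WT replicates 1 and 2, and Bmp10, below background on all 6 arrays, was highest there. The other atrial markers, of which Sln and Fgf12 were below background in both groups, did neither. Adipoq, Cidec and Retn were highest in those hearts, Pnpla2 lowest, and the other adipocyte markers did neither. Of these markers 1 adipocyte gene, Adipoq, passed without WT replicate 3 (difference -1.04, limma, adjusted p = 0.0388), where 1.34% of all named probes did. Adipoq lay above the background level on only 2 of the 6 arrays, those of WT replicates 1 and 2.

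The mean of the smooth muscle and pericyte list also set WT replicates 1 and 2 above the other hearts, but not with Acta2 left out. Among its 8 members Acta2 and Kcnj8 divided the hearts in this way. Acta2, the smooth muscle actin gene, read 11.07, 10.66 and 11.20 in KO hearts, against 12.96, 12.76 and 11.07 in WT hearts. Its difference was -1.28 with all hearts (limma, adjusted p = 0.455) and -1.88 without WT replicate 3, where it passed (limma, adjusted p = 0.00699). Kcnj8 read 10.32, 10.21 and 10.35 in KO hearts, against 10.69, 10.72 and 10.27 in WT hearts. Its difference of -0.41 without WT replicate 3 did not pass (limma, adjusted p = 0.120). Of the 8 members 3 were higher in KO and 5 lower with all hearts. Myh11, the smooth muscle myosin gene, was higher in every KO heart, at 7.79, 7.89 and 8.01, against 7.67, 7.42 and 7.63 in WT hearts. The Myh11 difference of 0.32 had the smallest p of the list and did not pass (limma, adjusted p = 0.455). With Acta2 left out, the other 7 markers had mean deviations of -0.036, -0.012 and 0.022 in KO hearts and 0.13, -0.0027 and -0.10 in WT hearts. The list mean of ventricular myocyte markers ran from -0.10 to 0.061 in KO hearts and from -0.0033 to 0.029 in WT hearts, but single members varied more. Those of widest range, Kcnj2 and Ryr2 at 0.90 and 0.73, were lowest in KO replicate 1 and did not set WT replicates 1 and 2 apart. Casq2, the calcium store protein gene, read 12.18, 11.82 and 11.76 in KO hearts, against 12.46, 12.41 and 11.88 in WT hearts. Tnnt2, the cardiac troponin T gene, read 13.98, 14.02 and 13.97 in KO hearts, against 13.76, 13.78 and 14.002 in WT hearts. Casq2 was thus highest in WT replicates 1 and 2 and Tnnt2 lowest there. So were Pln, highest, and Myl3, lowest, over narrow ranges of 0.078 and 0.092, and the other ventricular markers did neither. The part of these cell types in the Scn4b values was not tested.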

How the data were processed

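The deposited log2 values of 6 arrays, 3 KO and 3 WT hearts, were used as the authors gave them, with 1 mapped column per heart. RMA and Partek 6.6 are named, per the submitters' processing notes, and neither their settings nor the probe annotation were given in the sources used here. The array medians lay between 6.92 and 6.97 over 35556 probes, so no further normalization was applied.

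Of these probes 21789 had 1 gene symbol in the platform's annotation table, 1621 had several and 12146 were unnamed here. KO and WT were compared with limma 3.58.1 (R 4.3.3) by lmFit and eBayes (two-sided p, Benjamini-Hochberg adjustment over these probes), and the test was checked on simulated data. Lists are described by counts and medians without a set test.

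Members and lists were chosen with earlier results of these data known. By rule, the text names the members, Cenpf, other subunit genes, in 3 related lists the 3 genes above background with the smallest p, and the 3 genes nearest to each of the 2 widest-ranging members above background. Other genes were chosen after their values were seen. Promoters came from RefSeq (GRCm38.p6). Figures used matplotlib 3.10.9.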

Additional observations from a re-analysis of the deposited data

How the results depend on the processing

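Across 9 other settings and each array left out in turn, the Scn4b difference stayed above 0 and those of Scn3b, Scn10a and Scn1a below 0, and of all members only Scn4b passed, without WT replicate 3. Leaving out 1 array moved Scn4b over 0.87 to 1.59, Scn2b over -0.097 to 0.039 (above 0 without KO replicate 2) and Scn8a over -0.23 to 0.024 (above 0 without WT replicate 1). Called partner genes numbered 0 to 2, both without WT replicate 3, and the median of the transcription factor list ran from -0.020 to 0.073. The 6 probes called over the whole table became 1 to 293 without 1 array, 293 of them without WT replicate 3, 1 over all 35556 probes, 22 with a trend and robust variance model, 33 with array weights and 11 with the replicate block. At an unadjusted p under 0.05, 1015 of 2157 probes were higher, against 1301 of 2170 with array medians subtracted. Same-numbered hearts did not deviate together (r = -0.11, -0.16 and -0.0031 across probes, which are not independent), so the numbers are not taken as pairs, and with the replicate block Scn4b had an adjusted p of 0.274. Scn2b, Scn1a and Scn8a have no value under the filter on dim probes. Signal near the background level limits what Scn2b, Scn10a, Scn1a and Scn8a can show. Why results moved was not tested.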
